A study of Mus musculus with 18 samples.

Results

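Elastic fibre and microfibril genes were followed across all 18 libraries of a mouse RNA-seq study of T23 prostate adenocarcinoma cells. The set was chosen by gene family and holds 10 of the 55487 genes in the count tables. They are the fibrillin gene Fbn1, the elastin gene Eln, the fibulin genes Fbln1, Fbln2, Fbln5 and Fbln7, the microfibril-associated protein genes Mfap2, Mfap4 and Mfap5, and the dermatopontin gene Dpt. T23 cells are a mouse tumour line grown here in 6 conditions with 3 replicates each. The first treated condition was co-culture with fibroblasts plus enzalutamide, an antiandrogen drug used against prostate cancer, and isoliquiritigenin, a plant chalcone. Another was co-culture with fibroblasts plus enzalutamide, and a further one was enzalutamide without fibroblasts. Co-cultures without drug were made with Sparc-deficient or with wild-type fibroblasts, and T23 cells alone were the baseline. All 18 libraries share the T23 cells, and no library of fibroblasts alone was analysed here. The labels give no dose, no culture time and no word on whether fibroblasts were separated from the tumour cells before RNA was taken, and they do not say that replicates were separate cultures. P-values therefore measure the spread between these libraries, which may be technical. Fibroblasts in both enzalutamide co-cultures are described as human, although the sample titles name them as in the wild-type co-culture. From the labels, their species and line cannot be told. Any comparison of a drug-treated co-culture with an untreated one or with enzalutamide alone carries that limit. Reads were counted on the mouse build, and how RNA of human fibroblasts would enter such counts was not tested.

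Elastic fibres give tissues recoil and are built from an elastin core on a scaffold of fibrillin microfibrils. Fibrillin-1 polymerises into the microfibril, small MAGP proteins (the products of Mfap2 and Mfap5) sit on it, and fibulins link it to tropoelastin and to other matrix proteins before lysyl oxidases crosslink the fibre. Microfibrils also hold latent TGF-beta in the matrix through the latent TGF-beta binding proteins. In the prostate, fibroblasts and smooth muscle of the stroma are the usual source of these proteins.

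Promoter sequences are shown for the 3 members that rose with isoliquiritigenin, Fbln7, Fbln5 and Mfap2, and for Dpt, the member that fell most, so that members moving together and against each other can be read side by side. RefSeq promoter entries on GRCm38.p6 were found for 7 of the 10 members, and Eln, Mfap4 and Mfap5 are named only. Each sequence is the part of the 250 bases before the RefSeq start that precedes the first annotated exon, read 5′ to 3′ on the strand of the gene. The Fbln7 stretch is chr2:128863682-128863931 on the plus strand, inside the first intron of a longer annotated transcript. The Dpt stretch is chr1:164796413-164796643 (plus strand), the Fbln5 stretch chr12:101819120-101819369 (minus strand) and the Mfap2 stretch chr4:141010174-141010417 (plus strand). Capitals mark exact matches, on either strand, to the motifs that were searched. The AP-1 site was searched as TGANTCA. For the antioxidant response element the letters were TGACNNNGC. The core of the aryl hydrocarbon receptor site was GCGTG, and the TATA box was TATAAA. Matches do not overlap each other in the 4 stretches.
Fbln7: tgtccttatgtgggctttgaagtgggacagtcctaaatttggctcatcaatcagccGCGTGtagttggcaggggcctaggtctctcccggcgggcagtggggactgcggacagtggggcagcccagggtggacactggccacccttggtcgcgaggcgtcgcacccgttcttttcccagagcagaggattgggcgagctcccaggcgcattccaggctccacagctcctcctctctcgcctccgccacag
Dpt: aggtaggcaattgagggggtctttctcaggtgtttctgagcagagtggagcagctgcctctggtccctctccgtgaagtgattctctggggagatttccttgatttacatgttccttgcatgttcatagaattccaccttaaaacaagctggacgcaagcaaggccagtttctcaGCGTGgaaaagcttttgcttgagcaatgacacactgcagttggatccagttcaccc
Fbln5: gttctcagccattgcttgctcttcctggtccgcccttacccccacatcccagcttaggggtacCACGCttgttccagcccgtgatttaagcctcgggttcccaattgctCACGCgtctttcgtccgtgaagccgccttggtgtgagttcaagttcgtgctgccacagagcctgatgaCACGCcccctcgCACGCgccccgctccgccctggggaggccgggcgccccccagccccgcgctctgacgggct
Mfap2: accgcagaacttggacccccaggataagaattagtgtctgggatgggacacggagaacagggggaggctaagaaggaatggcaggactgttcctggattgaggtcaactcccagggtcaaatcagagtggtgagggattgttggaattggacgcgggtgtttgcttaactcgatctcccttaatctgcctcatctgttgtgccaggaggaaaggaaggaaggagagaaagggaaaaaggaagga
Fbln5 held 4 matches to the aryl hydrocarbon receptor core, all read as CACGC, at bases -187, -141, -73 and -61 from the start. Fbln7 and Dpt held 1 GCGTG each, at -194 and -75. Mfap2 held no match to any of the searched letters, nor did Fbln1, whose stretch is not shown. For Fbn1 and Fbln2 the 250 bases begin inside an annotated exon, so neither has a stretch to show. Of the 32851 promoters of the table, 28.2% held the aryl hydrocarbon receptor core at least 1 time in their 250 bases. For the antioxidant response element it was 10.2%, for the AP-1 site 6.75% and for the TATA box 12.4%. These shares count promoters with any match, so they give no rate for the 4 matches of Fbln5. A match describes letters in this window and is not a measured binding site.

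The libraries held between 16.1 and 26.7 M counts each and detected 18123 to 20154 genes. Enzalutamide replicate 2 stood apart, with 26.4% of its counts on the ribosomal RNA gene CT010467.1, against 0.0391 to 0.138% in the other libraries. Its member levels, scaled by TMM, mostly lay near those of its group, with Fbln7 at 7.70 CPM against 9.93 and 9.96. For enzalutamide alone and for wild-type fibroblasts, each against T23 cells alone, the number of members called is also given without it. The index in the titles restarts within the enzalutamide co-culture, so replicates 2 and 3 of that group and all isoliquiritigenin libraries belong to a second numbering series, whose meaning the labels do not give. Only the enzalutamide co-culture spans both series. A fit with the series as a term estimates it from replicate 1 of that group against replicates 2 and 3. Most epithelial markers were low. Epcam, Krt8, Krt18 and Cdh1 stayed under 1 CPM in every library and Pbsn had 0 counts, whereas Krt19 reached 0.414 to 18.4 CPM (mean 9.54 in T23 cells alone) and Hoxb13 1.36 to 3.24. T23 cells alone held 10 of 11 fibroblast markers at a mean of 10 CPM or above, and Lum had at most 3 counts in any library. Highest of them in T23 cells alone were Col1a1 (10783 CPM), Col1a2 (10384), Col3a1 (4914) and Vim (4009), so sums of fibroblast markers mostly follow these genes. Of 6 smooth muscle markers Acta2 was high (339 to 635 CPM), and Myh11 had at most 1 count. None of the others passed 5.77 CPM (Cnn1) in any library, so sums of these markers are mostly Acta2. Sparc ranged from 2584 to 3205 CPM over the 18 libraries, with 2975 to 3099 CPM with Sparc-deficient fibroblasts and 3047 to 3090 with wild-type fibroblasts, so the libraries do not show whether the fibroblasts lacked it. Since T23 cells without fibroblasts already express stromal genes, levels in the co-cultures cannot be split between tumour cells and fibroblasts, and in such bulk RNA fewer cells of a type and less RNA per cell cannot be told apart.

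Fbln2 and Fbn1 made up most of the set's RNA, and Eln was next to absent. Levels are given as normalised CPM, the counts of a gene per M counts of the TMM-scaled library, and between genes as CPM per kilobase of annotated exon. On that length-corrected scale Fbln2 was highest of the set in every group, with group means from 131 to 333 CPM per kb. Fbn1 followed at 45.0 to 60.7, and Fbln5 stood at 20.7 to 34.9, Dpt at 10.4 to 45.2, Mfap5 at 9.85 to 31.4 and Mfap2 at 14.6 to 21.5 CPM per kb. Mfap4 reached 4.62 to 12.2, Fbln7 1.32 to 7.35 and Fbln1 3.05 to 5.51 CPM per kb. Summed over the 10 genes, the level was 1748 ± 72.9 CPM in the isoliquiritigenin libraries, 2051 ± 41.2 in the enzalutamide co-culture, 2229 ± 52.6 with enzalutamide alone, 3279 ± 63.1 with Sparc-deficient fibroblasts, 2594 ± 19.3 with wild-type fibroblasts and 2783 ± 117 in T23 cells alone (SD, n = 3 each). Fbln2 supplied 47.8% of that sum in the isoliquiritigenin libraries, against 55.8% in the enzalutamide co-culture and 61.8% with wild-type fibroblasts. The share of Fbn1 was 31.2% with isoliquiritigenin, 29.8% in the enzalutamide co-culture and 23.2% with wild-type fibroblasts. These sums and shares use CPM without correction for length, so long genes such as Fbn1 (12128 exon bases) weigh more in them than per kb.

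**Figure D1:**
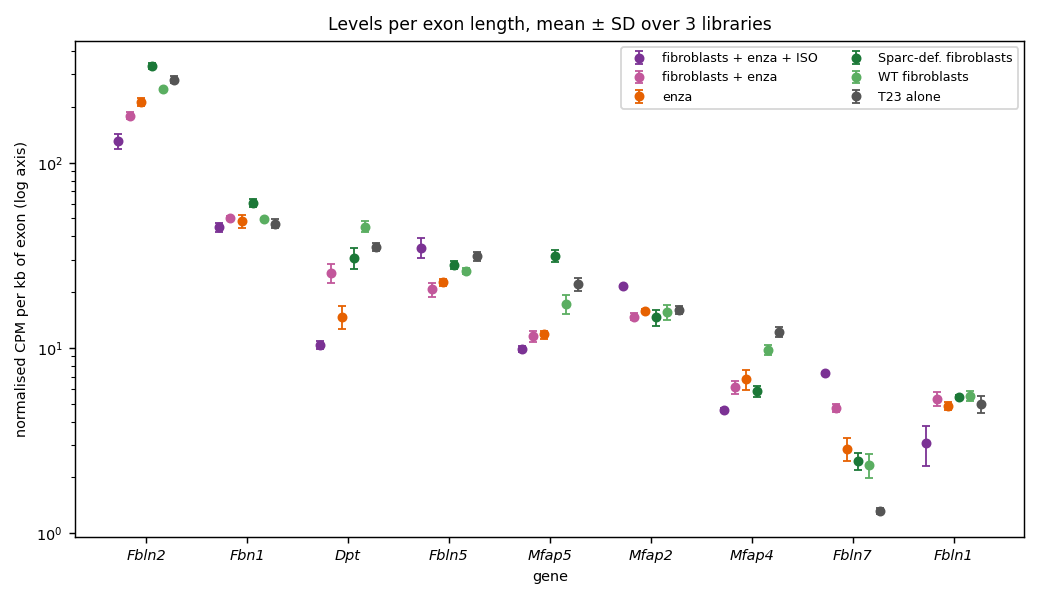
Normalised CPM per kb of exon (y axis, log scale) of the 9 members with enough counts to be tested (x axis), as mean ± SD of 3 libraries per group. Fbln2 lies above all others, at 131 to 333 CPM per kb, and the groups are farthest apart for Fbln7 (1.32 to 7.35) and Dpt (10.4 to 45.2).

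Fbn1 (ENSMUSG00000027204, chr2:125300594-125507993, minus strand), the gene of the microfibril backbone, varied least, with a highest group mean 1.35 times the lowest. Its levels were 580, 523 and 533 CPM in the isoliquiritigenin libraries and 628, 609 and 596 in the enzalutamide co-culture. With enzalutamide and no fibroblasts they were 578, 639 and 547 CPM, with Sparc-deficient fibroblasts 705, 733 and 772, with wild-type fibroblasts 613, 597 and 595, and in T23 cells alone 556, 545 and 606. Libraries with Sparc-deficient fibroblasts were the 3 highest and overlapped no other group, while each of the other 5 groups overlapped its neighbour in the order.

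Mfap2 (ENSMUSG00000060572, chr4:141010418-141015984, plus strand), which encodes MAGP-1, a small glycoprotein that binds fibrillin and tropoelastin, was called only in both comparisons of isoliquiritigenin, of 8 pairwise comparisons. It had 25.7, 26.3 and 26.3 CPM there, 17.2, 17.6 and 18.7 in the enzalutamide co-culture and 18.9, 19.6 and 19.1 with enzalutamide alone. The Sparc-deficient co-culture held 19.7, 17.0 and 16.5 CPM, the wild-type co-culture 19.8, 20.2 and 17.0, and T23 cells alone 20.5, 18.6 and 19.4. The 3 isoliquiritigenin libraries lay above the other 15, whose groups overlapped along the whole order.

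Mfap4 (ENSMUSG00000042436, chr11:61485431-61488900, plus strand) encodes a fibrinogen-related glycoprotein that binds microfibrils and tropoelastin. Its levels were 8.64, 9.10 and 8.89 CPM in the isoliquiritigenin libraries, 10.8, 12.1 and 12.6 in the enzalutamide co-culture and 12.5, 11.7 and 14.8 with enzalutamide alone. They were 10.4, 11.2 and 11.9 CPM with Sparc-deficient fibroblasts, 19.7, 19.1 and 17.5 with wild-type fibroblasts, and 24.7, 22.0 and 23.6 in T23 cells alone. T23 cells alone and the wild-type co-culture were the highest groups, each apart from its neighbours, the isoliquiritigenin libraries were the lowest, and the 3 groups between each overlapped a neighbour. The last 89 bases of the gene overlap Mapk7 on the opposite strand (chr11:61488812-61488900), and whether the counting used strand is not given in the sources used here. Mapk7 stood at 36.5 to 44.8 CPM and was called in 0 of 9 comparisons (adjusted p 0.311 to 0.999, edgeR).

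Mfap5 (ENSMUSG00000030116, chr6:122505845-122529290, plus strand), the gene of MAGP-2, was the microfibril gene that varied most, with a highest group mean 3.19 times the lowest. It had 35.2, 34.2 and 36.6 CPM with isoliquiritigenin, 39.0, 40.8 and 44.4 in the enzalutamide co-culture and 40.3, 44.6 and 42.3 with enzalutamide alone. With Sparc-deficient fibroblasts it reached 116, 119 and 103 CPM, with wild-type fibroblasts 59.6, 56.6 and 70.1, and in T23 cells alone 85.1, 72.7 and 80.9. Both enzalutamide groups without isoliquiritigenin overlapped each other, and all other groups were separate, with the Sparc-deficient co-culture at the top.

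Eln (ENSMUSG00000029675, chr5:134702593-134747323, minus strand), which encodes the elastin precursor, had 0 to 3 counts per library and did not pass the filter on low counts. Its highest level was 0.141 CPM, and the limit set by 3 counts is 0.108 to 0.272 CPM per library, so no difference between groups was detectable at this depth. The enzalutamide co-culture had 0 counts in all 3 libraries, and every other group had at least 1 library with a count.

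Among the fibulins, Fbln2 (ENSMUSG00000064080, chr6:91212455-91272540, plus strand), whose product binds fibrillin and fibronectin, separated all 6 groups. It had 884, 746 and 878 CPM with isoliquiritigenin, 1147, 1090 and 1195 in the enzalutamide co-culture and 1422, 1283 and 1355 with enzalutamide alone. The Sparc-deficient co-culture had 2098, 2204 and 2064 CPM, the wild-type co-culture 1613, 1598 and 1596, and T23 cells alone 1785, 1710 and 1870. No group overlapped its neighbour, and all 9 libraries with enzalutamide lay below all 9 without it.

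Fbln5 (ENSMUSG00000021186, chr12:101746565-101819055, minus strand), needed for elastic fibre assembly in mice, was low with enzalutamide and high once isoliquiritigenin was added. Levels were 220, 275 and 228 CPM in the isoliquiritigenin libraries, 133, 156 and 140 in the enzalutamide co-culture and 165, 153 and 152 with enzalutamide alone. They were 189, 188 and 206 CPM with Sparc-deficient fibroblasts, 186, 183 and 173 with wild-type fibroblasts, and 230, 206 and 213 in T23 cells alone. Both enzalutamide groups without isoliquiritigenin overlapped each other at the bottom, and at the top the isoliquiritigenin libraries overlapped T23 cells alone.

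Fbln7 (ENSMUSG00000027386, chr2:128862981-128897034, plus strand), a cell-adhesive fibulin described in mouse teeth and cartilage, had the widest range of the set, with a highest group mean 5.58 times the lowest. It had 23.8, 23.7 and 23.7 CPM in the isoliquiritigenin libraries, 14.6, 16.1 and 15.1 in the enzalutamide co-culture and 9.93, 7.70 and 9.96 with enzalutamide alone. Sparc-deficient co-cultures had 7.06, 8.76 and 7.84 CPM, wild-type co-cultures 6.92, 8.83 and 6.87, and T23 cells alone 4.42, 4.10 and 4.24. T23 cells alone lay below every other library, the enzalutamide co-culture and the isoliquiritigenin libraries each lay above all groups below them, and the 3 groups between overlapped.

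Fbln1 (ENSMUSG00000006369, chr15:85205949-85286535, plus strand), found in elastic fibre cores and basement membranes, was likewise called only in both comparisons of isoliquiritigenin. It had 12, 11 and 17.0 CPM in the isoliquiritigenin libraries, 21.7, 22.3 and 25.5 in the enzalutamide co-culture and 21.0, 20.3 and 22.4 with enzalutamide alone. With Sparc-deficient fibroblasts it had 24.4, 23.3 and 23.6 CPM, with wild-type fibroblasts 22.6, 25.4 and 24.2, and in T23 cells alone 19.1, 22.7 and 23.3. The isoliquiritigenin libraries were the 3 lowest, with replicate 3 above the other 2, and the other groups overlapped along the order.

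Dpt (ENSMUSG00000026574, chr1:164796644-164824266, plus strand) encodes dermatopontin, a small matrix protein that binds decorin and TGF-beta and takes part in collagen and fibronectin assembly. Its levels were 18.7, 18.0 and 17.1 CPM with isoliquiritigenin, 49.2, 42.1 and 39.4 in the enzalutamide co-culture and 21.8, 25.6 and 28.9 with enzalutamide alone. They were 58.6, 45.2 and 54.3 CPM with Sparc-deficient fibroblasts, 74.2, 83.9 and 75.6 with wild-type fibroblasts, and 61.5, 62.7 and 56.8 in T23 cells alone. The wild-type co-culture was highest and overlapped no group, the isoliquiritigenin libraries and those with enzalutamide alone were lowest and separate from each other, and the remaining 3 groups each overlapped a neighbour.

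**Figure D2:**
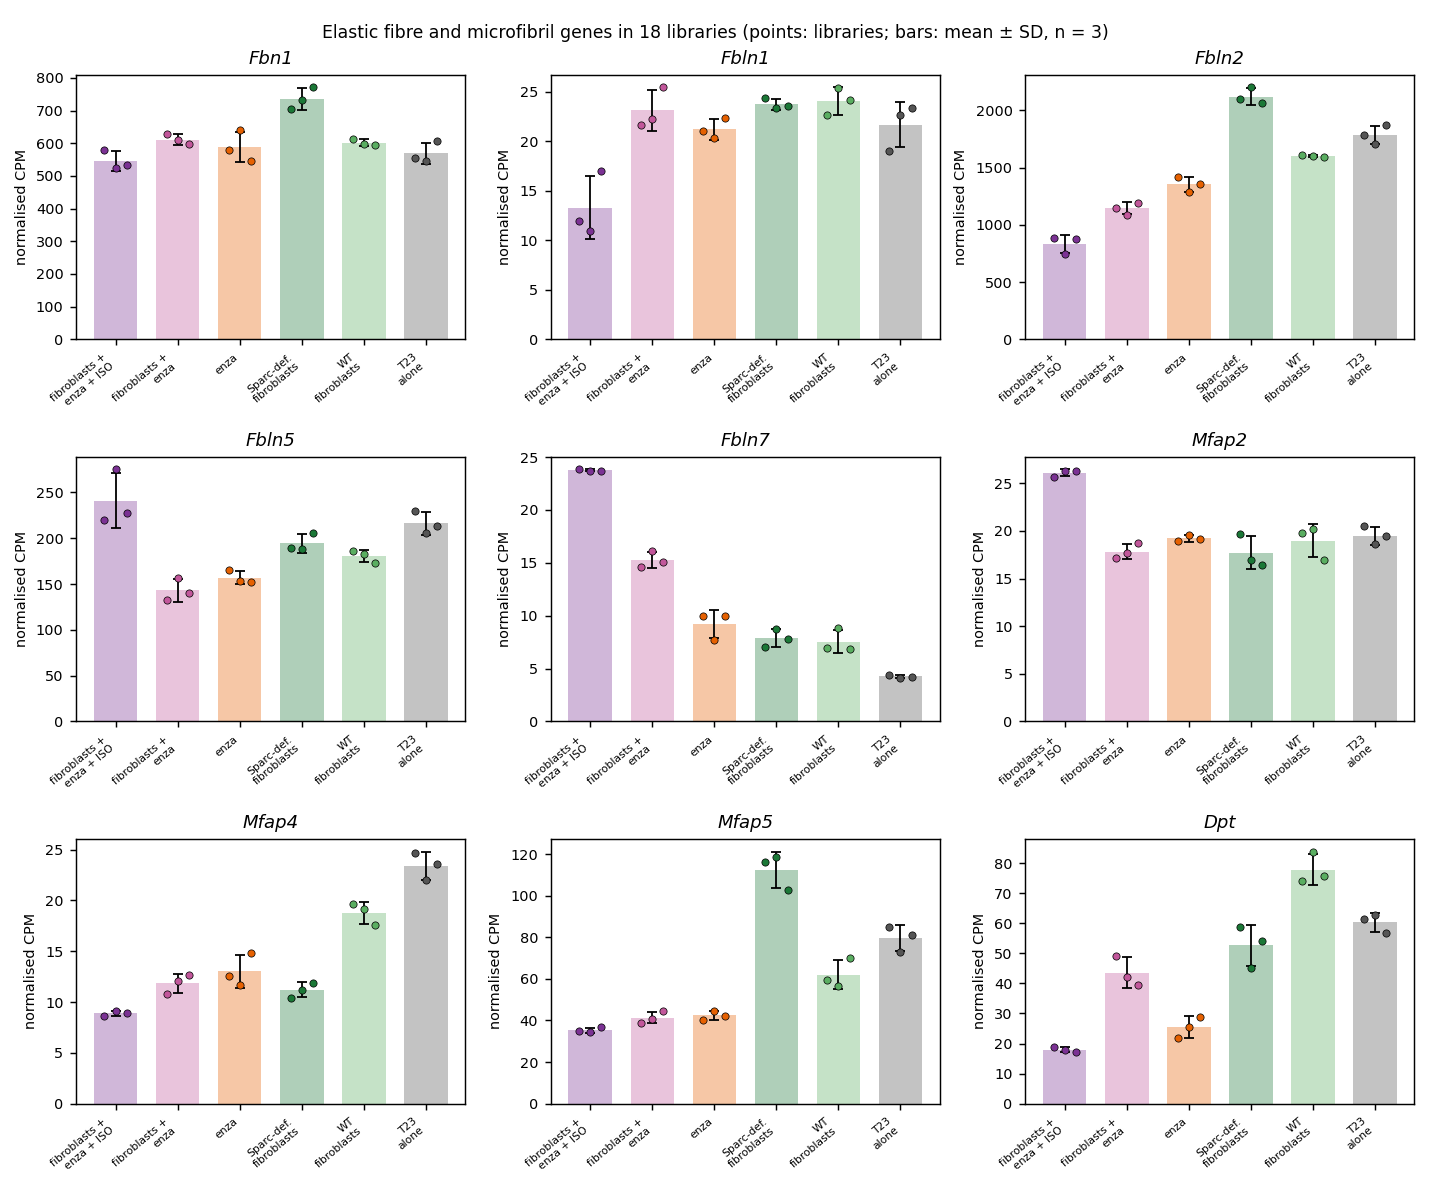
Normalised CPM (y axis, each panel from 0) of the 9 tested members in the 6 groups (x axis). Points are libraries and bars are mean ± SD of 3, so that the 3 isoliquiritigenin libraries can be seen at the top for Fbln7 (23.7 to 23.8 CPM) and Mfap2 (25.7 to 26.3) and at the bottom for Dpt (17.1 to 18.7) and Mfap4 (8.64 to 9.10).

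For the tests, each of the 9 members had at least 85 counts in every library, so none passed the filter through 1 group alone. A gene was called when its Benjamini-Hochberg adjusted p over the 13600 genes tested was under 0.05 in edgeR's two-sided quasi-likelihood test, and log2 fold changes are given ± SE. In a joint test of any difference among the 6 groups 9 of 9 members were called, where 54.3% of all genes tested were called. The comparisons below share libraries (T23 cells alone, the wild-type co-culture and the enzalutamide co-culture each enter several), so their results are not independent of each other.

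With enzalutamide and no fibroblasts, Fbln2, Fbln5, Mfap4, Mfap5 and Dpt were lower and Fbln7 was higher than in T23 cells alone. That is 5 of 9 members called lower, where 5.19% of all genes tested were lower, and 1 called higher, where 6.84% were. Dpt fell to 25.5 ± 3.56 CPM with enzalutamide, against 60.4 ± 3.11 in T23 cells alone (SD, n = 3 each; log2 fold change -1.25 ± 0.10, adjusted p 1.65e-08, edgeR). Mfap5 fell to 42.4 ± 2.13 CPM, against 79.6 ± 6.29 in T23 cells alone (-0.91 ± 0.08, adjusted p 4.09e-08), and Mfap4 to 13.0 ± 1.64, against 23.4 ± 1.38 (-0.83 ± 0.09). Fbln5 (-0.46 ± 0.07) and Fbln2 (-0.40 ± 0.06) were also lower, and each of these 5 genes was lower in all 3 enzalutamide libraries than in any T23 library. Fbln7 rose 2.2-fold, to 9.2 ± 1.29 CPM with enzalutamide, against 4.26 ± 0.16 in T23 cells alone (1.14 ± 0.12, adjusted p 1.33e-06). Fbn1 (0.05 ± 0.06), Fbln1 (-0.02 ± 0.11) and Mfap2 (-0.03 ± 0.08) were not called. Without replicate 2 of enzalutamide, the library rich in ribosomal RNA, 6 of 9 members were likewise called. Of 10 fibroblast markers tested, 4 fell and 1 rose in this comparison, with summed levels of all 11 listed markers at 27694 to 30140 CPM with enzalutamide and 31985 to 33313 in T23 cells alone. Their part in the result was not tested.

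The enzalutamide co-culture showed the same 6 calls when set against the wild-type co-culture, a comparison that shares no library with the preceding one. There 5 of 9 members were lower, where 3.49% of all genes tested were, and 1 was higher, where 3.7% were. Dpt fell to 43.6 ± 5.09 CPM in the enzalutamide co-culture, against 77.9 ± 5.24 with wild-type fibroblasts (SD, n = 3 each; -0.84 ± 0.10, adjusted p 4.63e-06). Mfap4 (-0.67 ± 0.09), Mfap5 (-0.58 ± 0.08), Fbln2 (-0.49 ± 0.06) and Fbln5 (-0.34 ± 0.07) were lower as well, and no library of the enzalutamide co-culture reached the wild-type range for any of the 5. Fbln7 rose 2.01-fold, to 15.3 ± 0.78 CPM in the enzalutamide co-culture, against 7.54 ± 1.12 with wild-type fibroblasts (1.00 ± 0.11, adjusted p 1.42e-06). Fbn1 (0.02 ± 0.06), Fbln1 (-0.06 ± 0.11) and Mfap2 (-0.09 ± 0.08) were again not called. With the numbering series as a term the count was 6 as well. That fit rests on replicate 1 of the enzalutamide co-culture, the only one in the series of the wild-type libraries. Fibroblast markers moved here too, with 4 of 10 lower and 1 higher and sums of 27437 to 28846 CPM in the enzalutamide co-culture and 30941 to 32346 with wild-type fibroblasts. Smooth muscle markers (mostly Acta2) summed to 572 to 642 CPM in the enzalutamide co-culture and 467 to 547 with wild-type fibroblasts. The part of either list in the result was not tested. The fibroblasts of these groups may not be the same, as described above.

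Whether fibroblasts altered the enzalutamide response was tested as an interaction, the fold change in co-culture minus the fold change without fibroblasts. The co-culture fold change sets fibroblasts described as human against wild-type ones, and it crosses the numbering series. An interaction cannot be told apart from a difference of fibroblasts or series. By edgeR 0 of 9 members were called in either direction, where 0.0147% of all genes tested were called higher and 0.00735% lower. At an unadjusted p under 0.05, 755 of the 13600 genes tested passed by edgeR and 675 by DESeq2. Among the members 2 passed by edgeR and the same 2 by DESeq2, which also called 0 members. They were Dpt, with a difference of 0.41 ± 0.14 on the log2 scale (p 0.0073, adjusted p 0.759), and Mfap5, with 0.33 ± 0.11 (p 0.00724, adjusted p 0.759). For both genes the fall with enzalutamide was smaller in co-culture. The other members had differences between -0.13 (Fbln7) and 0.17 (Mfap4). With no filter on low counts the Dpt difference was called (adjusted p 0.0354, in a range of 0.0354 to 0.999 over its alternatives).

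With isoliquiritigenin added to the enzalutamide co-culture, nearly the whole set changed, in both directions. Against the enzalutamide co-culture 3 of 9 members were called higher, where 12.9% of all genes tested were, and 5 lower, where 13.6% were. Fbln5 rose 1.69-fold, to 241 ± 30.0 CPM with isoliquiritigenin, against 143 ± 12.2 in the enzalutamide co-culture (SD, n = 3 each; 0.75 ± 0.07, adjusted p 5.12e-08). Fbln7 rose 1.56-fold (0.64 ± 0.09, adjusted p 1.61e-05), and Mfap2 rose 1.46-fold (0.55 ± 0.08, adjusted p 1.17e-05). Dpt fell to 17.9 ± 0.84 CPM with isoliquiritigenin, against 43.6 ± 5.09 in the enzalutamide co-culture (-1.28 ± 0.10, adjusted p 4.04e-09), and Fbln1 fell to 13.3 ± 3.21, against 23.1 ± 2.05 (-0.80 ± 0.11, adjusted p 1.21e-05). Fbln2 (-0.45 ± 0.06), Mfap4 (-0.42 ± 0.10) and Mfap5 (-0.23 ± 0.08, adjusted p 0.0394) were lower too. All 8 called genes kept the groups' libraries apart. Fbn1 missed the threshold (-0.16 ± 0.06, adjusted p 0.0501) and was called in 5 of 14 alternatives, by DESeq2 among them (adjusted p 0.0126 to 0.191 over all 14). The Mfap5 call was lost without replicate 2 or 3 of the enzalutamide co-culture and without replicate 1 or 2 of the isoliquiritigenin group (adjusted p 0.0694 to 0.177). Without replicate 1 of the enzalutamide co-culture all libraries came from the second numbering series, and the same number of members, 8, were called, among them Dpt (-1.18) and Fbln5 (0.70).

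Set against the wild-type co-culture, the isoliquiritigenin libraries had the largest changes of Dpt and Fbln7 in the 8 pairwise comparisons. The wild-type co-culture had neither drug. Against it, the enzalutamide co-culture without isoliquiritigenin already differed by -0.84 for Dpt and 1.00 for Fbln7, so this comparison holds both drugs together. Here 3 of 9 members were higher, where 19.2% of all genes tested were, and 5 were lower, where 19.9% were. Dpt fell 4.34-fold, to 17.9 ± 0.84 CPM with both drugs, against 77.9 ± 5.24 with wild-type fibroblasts (SD, n = 3 each, log2 fold change -2.12 ± 0.10, adjusted p 2.79e-13, edgeR). Mfap4 (-1.08 ± 0.09), Fbln2 (-0.94 ± 0.06), Fbln1 (-0.86 ± 0.11) and Mfap5 (-0.81 ± 0.08) were lower. Fbln7 rose 3.12-fold, to 23.7 ± 0.08 CPM with both drugs, against 7.54 ± 1.12 with wild-type fibroblasts (1.64 ± 0.10, adjusted p 1.2e-11, edgeR). Mfap2 (0.46 ± 0.08) and Fbln5 (0.41 ± 0.07) were higher, but with the numbering series as a term in the fit neither was called (Mfap2 0.38, adjusted p 0.0964, and Fbln5 0.25, adjusted p 0.209). The groups compared lie wholly in different series, and the term rests on the enzalutamide co-culture, the only group in both. Fbn1 was not called (-0.14 ± 0.06, adjusted p 0.0701), but was in 4 of 14 alternatives (adjusted p 0.0234 to 0.701 over all 14). Fibroblast markers were 2 higher (Pdgfra and Pdgfrb) and 6 lower of 10. Their sums, mostly Col1a1, Col1a2, Col3a1 and Vim, were 23155 to 23437 CPM with isoliquiritigenin and 30941 to 32346 with wild-type fibroblasts. Against the enzalutamide co-culture 3 of the 10 markers were higher and 6 lower. Smooth muscle markers (mostly Acta2) summed to 410 to 536 CPM with isoliquiritigenin and 572 to 642 in the enzalutamide co-culture. The part of either list in these results was not tested.

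Wild-type fibroblasts without drug went with the fewest member calls of the pairwise comparisons, a count that depended on the fit. Against T23 cells alone 1 of 9 members was called higher, where 0.257% of all genes tested were, and 1 lower, where 0.257% were as well. Fbln7 rose 1.78-fold, to 7.54 ± 1.12 CPM with wild-type fibroblasts, against 4.26 ± 0.16 in T23 cells alone (SD, n = 3 each; 0.84 ± 0.12, adjusted p 0.00305). Mfap5 fell to 62.1 ± 7.07 CPM with wild-type fibroblasts, against 79.6 ± 6.29 in T23 cells alone (-0.36 ± 0.08, adjusted p 0.0284). The Mfap5 call was lost without replicate 1 or 3 of T23 cells alone and without replicate 1 or 2 of the wild-type co-culture (adjusted p 0.154 to 0.246). Dpt (0.37 ± 0.09, adjusted p 0.0826) was not called by edgeR, but DESeq2 called it (adjusted p 0.0178, in a range of 0.000135 to 0.41 over its alternatives). Fbn1 (0.08 ± 0.06), Fbln1 (0.15 ± 0.11), Fbln2 (-0.16 ± 0.06), Fbln5 (-0.26 ± 0.07), Mfap2 (-0.04 ± 0.08) and Mfap4 (-0.32 ± 0.09) were not called. Without enzalutamide replicate 2, a library outside this comparison that feeds the shared spread, 4 members were called, with Dpt and Mfap4 added. Of 10 fibroblast markers tested, edgeR called 0, with 4 at an unadjusted p under 0.05, and DESeq2 called 1, Pdgfrb. Smooth muscle markers (mostly Acta2) summed to 467 to 547 CPM with wild-type fibroblasts and 346 to 394 in T23 cells alone, and their part in the result was not tested.

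Sparc-deficient fibroblasts went with higher Mfap5, Fbln2 and Fbn1 and lower Mfap4 and Dpt than wild-type fibroblasts. That makes 3 of 9 members higher, where 6.72% of all genes tested were, and 2 lower, where 4.79% were. Mfap5 rose 1.81-fold, to 113 ± 8.66 CPM with Sparc-deficient fibroblasts, against 62.1 ± 7.07 with wild-type fibroblasts (SD, n = 3 each; 0.86 ± 0.08, adjusted p 3.9e-08). Fbln2 (0.41 ± 0.06, adjusted p 9.04e-05) and Fbn1 (0.29 ± 0.06, adjusted p 0.00245) were higher in all 3 libraries. Mfap4 fell to 11.2 ± 0.74 CPM with Sparc-deficient fibroblasts, against 18.8 ± 1.11 with wild-type fibroblasts (-0.75 ± 0.09, adjusted p 5.64e-06), and Dpt to 52.7 ± 6.84, against 77.9 ± 5.24 (-0.56 ± 0.09, adjusted p 0.000238). Fbln1 (-0.02 ± 0.11), Fbln5 (0.11 ± 0.07), Fbln7 (0.05 ± 0.11) and Mfap2 (-0.10 ± 0.08) were not called. Mfap4 and Mfap5, both microfibril-associated genes, thus moved in opposite directions here, whereas with enzalutamide both fell. Smooth muscle markers (mostly Acta2) summed to 375 to 447 CPM with Sparc-deficient and 467 to 547 with wild-type fibroblasts, and their part in the result was not tested. Sparc itself encodes a collagen-binding matrix glycoprotein. The labels do not say how the Sparc-deficient fibroblasts were derived.

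Against T23 cells alone the Sparc-deficient co-culture had 4 of 9 members higher, where 6.1% of all genes tested were, and 1 lower, where 3.65% were. Fbln7 (0.89 ± 0.12), Mfap5 (0.50 ± 0.08), Fbn1 (0.37 ± 0.06) and Fbln2 (0.25 ± 0.06, adjusted p 0.0117) were higher and Mfap4 was lower (-1.07 ± 0.09, adjusted p 1.87e-08). Dpt (-0.19 ± 0.09), Fbln1 (0.13 ± 0.11), Fbln5 (-0.15 ± 0.07) and Mfap2 (-0.14 ± 0.08) were not called. The Fbln2 call was lost without replicate 2 of T23 cells alone (adjusted p 0.0823) and without replicate 2 of the Sparc-deficient co-culture (adjusted p 0.0716). Of 10 fibroblast markers 2, Col3a1 and Thy1, were higher against T23 cells alone and also against the wild-type co-culture, and none was lower. Their sum was 33734 to 35573 CPM with Sparc-deficient fibroblasts, against 30941 to 32346 with wild-type fibroblasts and 31985 to 33313 in T23 cells alone, and their part in the result was not tested.

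Within enzalutamide treatment, fibroblasts went with higher Dpt and Fbln7. The fibroblasts of this co-culture are described as human, and the counts come from the mouse build. In the enzalutamide co-culture against enzalutamide alone 2 of 9 members were higher, where 1.14% of all genes tested were, and 1 was lower, where 0.941% were. Dpt was 1.71-fold higher, at 43.6 ± 5.09 CPM in the co-culture against 25.5 ± 3.56 with enzalutamide alone (SD, n = 3 each; 0.78 ± 0.10, adjusted p 0.000242). Fbln7 was 1.63-fold higher (0.70 ± 0.11, adjusted p 0.000637) and Fbln2 lower (-0.24 ± 0.06, adjusted p 0.0396). Fbn1 (0.06 ± 0.06), Fbln1 (0.12 ± 0.11), Fbln5 (-0.13 ± 0.07), Mfap2 (-0.10 ± 0.08), Mfap4 (-0.15 ± 0.10) and Mfap5 (-0.03 ± 0.08) were not called. With the numbering series as a term 1 of 9 members, Dpt, was called, and Fbln7 (adjusted p 0.0864) and Fbln2 (adjusted p 0.384) were not. That fit rests on replicate 1 of the co-culture, its only library of the first series. The Fbln2 call was also lost without replicate 1 or 3 of enzalutamide alone and without replicate 1 or 2 of the enzalutamide co-culture (adjusted p 0.0549 to 0.228). Smooth muscle markers (mostly Acta2) summed to 572 to 642 CPM in the enzalutamide co-culture and 377 to 426 with enzalutamide alone. Of 10 fibroblast markers 1, Pdgfrb, was higher (0.27 ± 0.05, adjusted p 0.00213, edgeR) and none lower, and the part of either list in the result was not tested.

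**Figure D3:**
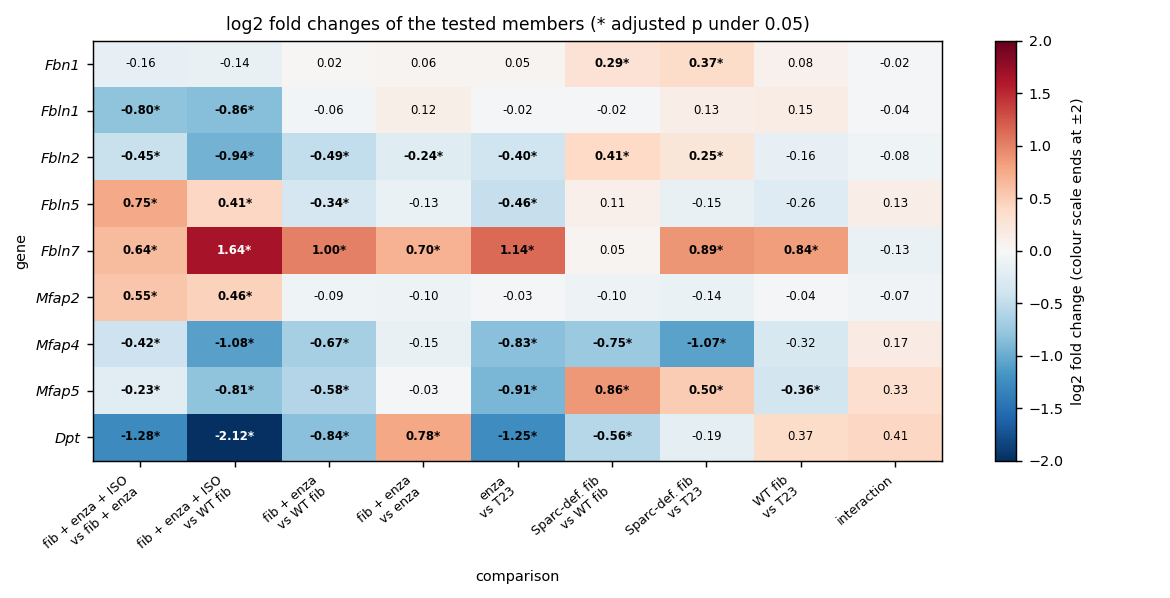
Log2 fold changes (numbers and colour) of the 9 tested members (rows) in the 8 comparisons and the interaction (columns), with an asterisk where the adjusted p is under 0.05. The colour scale ends at ±2, so the fall of Dpt by 2.12 with enzalutamide and isoliquiritigenin against the untreated wild-type co-culture is drawn at its end.

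Other genes of the elastic fibre pathway were followed in a list of 38 paralogs, crosslinking enzymes, binding partners and elastin-degrading proteases, of which 28 were tested. With isoliquiritigenin against the enzalutamide co-culture 11 of the 28 were higher and 9 lower, where 12.9% and 13.6% of all genes tested were, with a list median of 0.14 on the log2 scale, against -0.23 for the members and 0.00 for all genes tested. Tnxb, the gene of tenascin-X, had 13.0 ± 1.45 CPM with isoliquiritigenin and 5.46 ± 0.64 in the enzalutamide co-culture (SD, n = 3 each; 1.26 ± 0.13, adjusted p 8.82e-08). Ctsk, which encodes the elastin- and collagen-degrading protease cathepsin K, had 23.6 ± 1.91 CPM with isoliquiritigenin and 11.5 ± 0.20 in the enzalutamide co-culture (1.04 ± 0.09). Loxl4, a lysyl oxidase-like crosslinking enzyme gene, was lower with isoliquiritigenin than in the enzalutamide co-culture (-0.69 ± 0.05) and than with wild-type fibroblasts (-0.99 ± 0.05). In the comparison of the isoliquiritigenin libraries with the wild-type co-culture, which had neither drug, 12 were higher and 9 lower, where 19.2% and 19.9% of all genes were. There Dcn, the gene of the dermatopontin-binding proteoglycan decorin, was lower (-1.0 ± 0.09) and Mmp2, a gelatinase gene, higher (0.61 ± 0.05).

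With enzalutamide alone 3 of the 28 partner genes were higher and 7 lower than in T23 cells alone, where 6.84% and 5.19% of all genes were, with a list median of -0.11 and a member median of -0.40. Vcan, the gene of the fibulin-binding proteoglycan versican, rose (0.60 ± 0.07), and Loxl4 (-0.28 ± 0.05) and Adamtsl4 (-0.39 ± 0.07), whose product binds fibrillin microfibrils, fell. In the enzalutamide co-culture against wild-type fibroblasts 2 were higher and 4 lower, where 3.7% and 3.49% of all genes were, with Vcan (0.40 ± 0.07) and Mmp2 (0.29 ± 0.05) among the higher and Adamtsl4 (-0.50 ± 0.08) among the lower. The enzalutamide co-culture against enzalutamide alone gave 2 higher and 4 lower, where 1.14% and 0.941% of all genes were, with Mmp9 higher (0.29 ± 0.06) and Fbn2, the second fibrillin gene, lower (-0.40 ± 0.08), as was Adamtsl4 (-0.33 ± 0.08). Sparc-deficient against wild-type co-culture gave 8 higher and 3 lower, where 6.72% and 4.79% of all genes were. Loxl3 had 189 ± 4.57 CPM with Sparc-deficient and 128 ± 6.91 with wild-type fibroblasts (0.57 ± 0.05, adjusted p 1.2e-08), Lox, the main elastin crosslinking enzyme gene, rose too (0.60 ± 0.07), and Ctsk fell (-0.70 ± 0.10). Against T23 cells alone the Sparc-deficient co-culture had 8 higher and 4 lower, where 6.1% and 3.65% of all genes were, with Loxl3 (0.55 ± 0.05) and Vcan (0.40 ± 0.07) higher and Ctsk lower (-0.76 ± 0.10). Wild-type fibroblasts against T23 cells alone gave 0 higher and 1 lower, Lox (-0.34 ± 0.07, adjusted p 0.0313), where 0.257% of all genes were called in each direction. The interaction gave 0 of the 28 by edgeR and by DESeq2. At an unadjusted p under 0.05 it gave 2 by each, Vcan and Mmp9. At that threshold 755 of all 13600 genes tested passed by edgeR and 675 by DESeq2. Counts over lists describe the lists and were not tested against other genes.

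**Figure D4:**
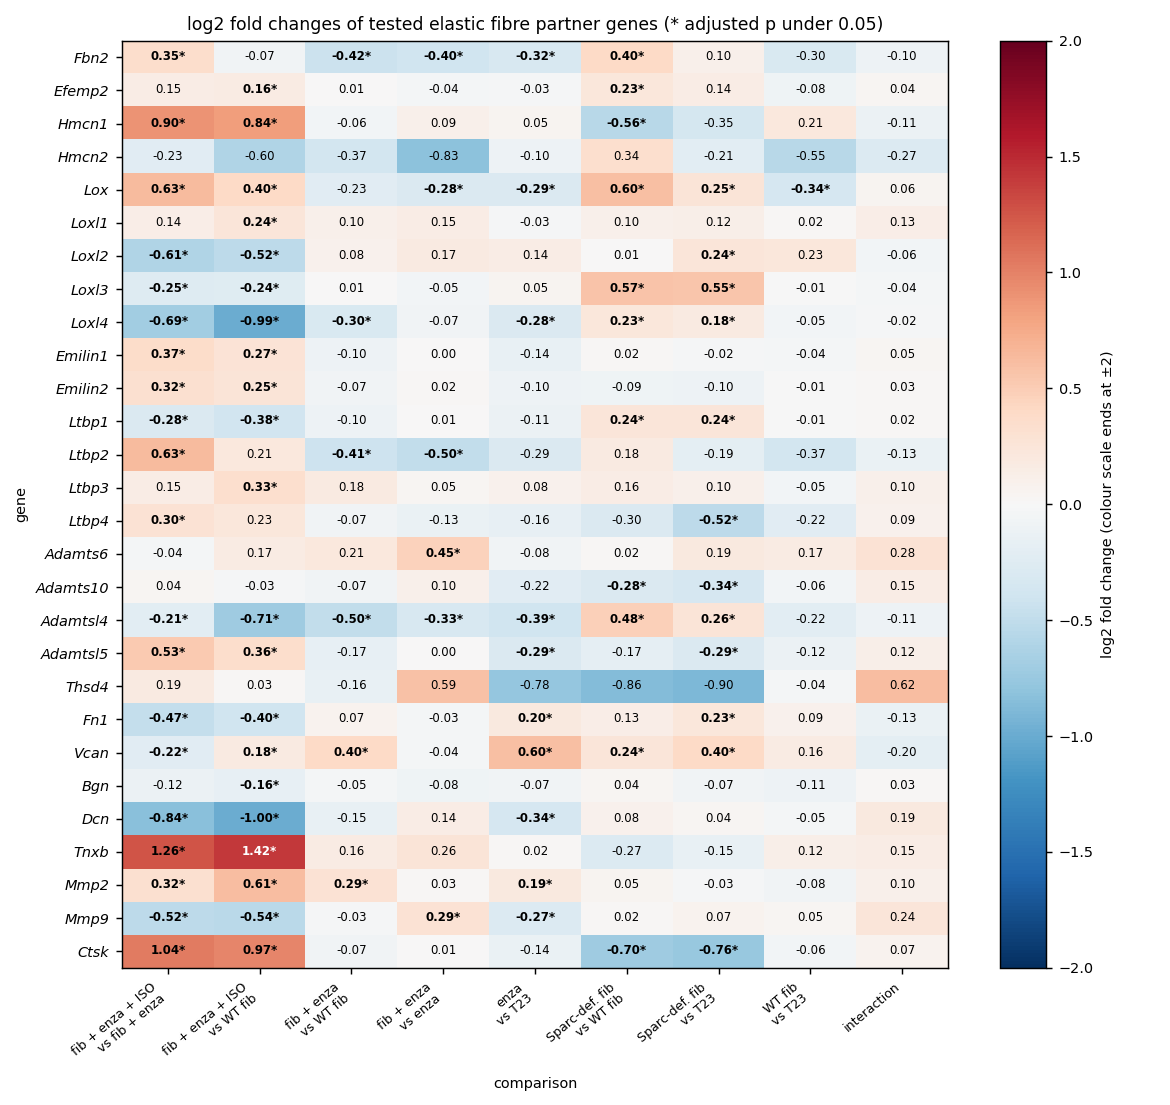
Log2 fold changes of the 28 tested partner genes (rows) in the 8 comparisons and the interaction (columns), with an asterisk where the adjusted p is under 0.05. Each isoliquiritigenin column holds more asterisks than any other column, with 20 and 21 genes called. The shares called of all genes were also highest there. The single asterisk for wild-type fibroblasts against T23 cells alone is Lox.

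Within the set, log2 levels of Fbln2 and Mfap5 went together over the 18 libraries (Pearson r 0.92), and Fbln2 and Fbln7 went opposite ways (r -0.85). Mfap5 and Fbln7 had the smallest p in the joint test of the 6 groups, and the genes most like them among all tested were listed by Pearson r over the 18 libraries. For Mfap5 these were Cpq (0.97), Cav2 (0.97), Ccn1 (0.96), Aqp1 (0.96) and Fam114a1 (0.96). For Fbln7 they were Sema3e (0.96), Inmt (0.96), Lactb (0.96), Pdgfrb (0.96) and Rspo3 (0.95). The libraries fall into 6 groups, so each r mostly reflects differences between groups, and it is given as a description with no test.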

How the data were processed

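RNA of T23 cells, alone or with fibroblasts, was made into 18 poly(A) TruSeq Stranded libraries and sequenced on a NextSeq 550, per the labels' protocols. The deposited files hold raw read counts per gene, 1 file per library, with no normalisation by the authors. The submitters' processing notes name the mouse build GRCm38, STAR 2.6.1d and featureCounts 2.0, beside cutadapt 2.9, FastQC 0.11.9, bcl2fastq 2.20.0.422 and DESeq2 without a version. Annotation release, strand setting and treatment of multiply matching reads are not given in the sources used here. Symbols and coordinates came from GENCODE M21 on GRCm38, which named 55227 of 55487 genes. The 260 without a symbol held 0.00552% of the counts.

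After filterByExpr (minimum count 10) and TMM scaling, a quasi-likelihood model in edgeR 4.0.16 (R 4.3.3) gave each group a mean, with all 18 libraries in 1 fit. It had 12 residual degrees of freedom, and the biological coefficient of variation was 7.03%. SE was derived as |log2 fold change| / √F. Normalised CPM is given as mean ± SD, and its precision is limited by counting error at low levels (floor of 3 counts) and by the 3 libraries per group. Floors cover counting error only. Replicates differed by more than counting noise (chi-square over degrees of freedom of at least 2.55), so none was merged. Same replicate numbers did not pair libraries (r -0.144 to 0.0982, and 0 of 15 pairs of groups had all above 0.1). Alternatives were RLE scaling, DESeq2 1.42.0, no filter, fits of only the groups compared, each replicate left out, enzalutamide replicate 2 left out throughout, the ribosomal RNA gene left out, a replicate block, the numbering series as a term and, added after seeing the data, the enzalutamide co-culture with its first-series library only. Every member that passed the filter is named in every comparison, and of the partner list up to 3 called genes per comparison by smallest p. The 5 genes most like each of the 2 members with the smallest p in the joint test are also named. Members, lists and tests were chosen with earlier results of these data known. The labels of the promoter motifs are textbook consensus letters, and the 4 promoters were picked after levels were seen. The levels of 2 marker genes are not reported here.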

Additional observations from a re-analysis of the deposited data

How the results depend on the processing

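Of 43 member calls, 36 were made under every alternative, and the 7 lost in some are named in the report beside the alternatives that lost them. Of 38 results not called, 8 were called in some alternative, in 1 to 5 alternatives each, among them Fbn1 in both isoliquiritigenin comparisons and Fbln5 in Sparc-deficient fibroblasts against T23 cells alone (with only the groups compared). To the lost calls are added Fbln2 in the enzalutamide co-culture against enzalutamide alone with only the groups compared (adjusted p 0.236) and with the first numbering series only (0.412), where Fbln7 was lost too (0.123). For wild-type fibroblasts against T23 cells alone, 2 members were called, but 4 with no filter on low counts, 6 with only the groups compared, 4 without enzalutamide replicate 2, and 1 to 4 over the fits without 1 replicate. For the enzalutamide co-culture against enzalutamide alone, 3 were called, but 1 with the numbering series as a term and 1 with the first numbering series only. The interaction called 0 members, but 1 (Dpt) with no filter. With the replicate block, the number of members called was the same in all comparisons, for example 6 for enzalutamide alone and 8 for isoliquiritigenin against the enzalutamide co-culture. Replicate numbers are not shown to pair the libraries. The cause of these shifts was not tested.

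Direction turned in 20 fits, all for members not called and near 0. Over the fits without 1 replicate, log2 values ran from -0.091 to 0.030 for Mfap2 (wild-type fibroblasts against T23 cells alone), from -0.060 to 0.024 for Fbln1 and from -0.029 to 0.19 for Fbln7 (Sparc-deficient against wild-type), from -0.016 to 0.093 for Fbn1, from -0.11 to 0.028 for Fbln1 and from -0.059 to 0.011 for Mfap2 (enzalutamide alone against T23 cells alone), and from -0.084 to 0.012 for Mfap5 (enzalutamide co-culture against enzalutamide alone). In the interaction they ran from -0.071 to 0.039 for Fbn1, from -0.11 to 0.052 for Fbln1 and from -0.22 to 0.0096 for Fbln7. Fbn1 in the interaction was 0.015 with the numbering series as a term and 0.0148 with the first numbering series only.

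Counts over all genes depended more on the fit. Wild-type fibroblasts against T23 cells alone gave 70 genes, but 148 by DESeq2, 165 with no filter, 336 with only the groups compared, 157 without enzalutamide replicate 2 and as few as 11 without 1 replicate. The enzalutamide co-culture against enzalutamide alone gave 283, but 541 with no filter, 438 by DESeq2, 56 with only the groups compared, 11 with the series term, 5 with the first series only and 83 without replicate 2 of the co-culture. Against wild-type fibroblasts it gave 977, but 214 with the series term, 190 with the first series only and 550 without its replicate 2. Enzalutamide alone gave 1636, but 740 with only the groups compared and 901 without replicate 3 of T23 cells alone. Sparc-deficient fibroblasts gave 1325 against T23 cells alone, but 2188 with only the groups compared and 745 without replicate 2 of T23 cells alone, and 1566 against wild-type fibroblasts, but 857 without wild-type replicate 2. Isoliquiritigenin against wild-type fibroblasts gave 5324, but 1849 with the series term, where the joint test gave 4804 and not 7379. The interaction gave 3 genes, but 99 with no filter, 8 by DESeq2, 0 to 12 without 1 replicate, and 0 with RLE scaling, without the ribosomal RNA gene, with the replicate block, the series term, only the groups compared or the first series only.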
